A study of Homo sapiens with 2 samples.

Results

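CPT1A, the entry gate of mitochondrial fatty acid oxidation, had 2208 read counts in control SAS cells and 4742 in SAS cells with KDM4C knockdown, while CPT2, ACADM and HADH, which act further along the same route, were lower after knockdown. These 4 genes belong to a set of 10 that was fixed by name, with earlier results of these data known. The carnitine shuttle genes are CPT1A, SLC25A20 and CPT2, and the acyl-CoA dehydrogenase genes are ACADVL, ACADM and ACADS. The others are the trifunctional protein genes HADHA and HADHB, the hydroxyacyl-CoA dehydrogenase gene HADH, and ETFDH, which passes the electrons on to ubiquinone. All 10 were found by GENCODE symbol among the 58884 genes of the count table, and all 10 had at least 20 counts over both libraries. SAS is a squamous cell carcinoma line from the tongue, grown in DMEM with serum. The control, labelled LKO and of wild-type genotype, carried the pLKO.1 vector, and the shKDM4C cells, labelled as a KDM4C knockdown, carried a lentiviral hairpin against this histone demethylase, both after puromycin selection. The sources used here do not say which of the study's hairpins was sequenced or whether the cells were a pool or a clone. There was 1 poly(A) library per condition, so no difference below has a replicate check and no test between conditions was possible.

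Fatty acids enter the mitochondrial matrix as carnitine esters. CPT1 on the outer membrane forms the ester and is inhibited by malonyl-CoA, the carrier SLC25A20 exchanges it for free carnitine across the inner membrane, and CPT2 turns it back into acyl-CoA. Each round of beta-oxidation then takes off an acetyl unit through dehydrogenation, hydration, a further dehydrogenation and thiolysis, with enzymes of long, medium and short chain preference, and the electrons of the first step reach the respiratory chain through ETF and ETFDH.

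The count table summed to 57626616 counts for LKO and 50627096 for shKDM4C, and the 10 genes together held 0.0581% and 0.0547% of them. Levels are given as CPM, the counts relative to the library size, scaled with TMM factors of 1.03 and 0.974, and ratios as the log2 ratio of shKDM4C over LKO, with a 95% interval that covers counting error only. A gene was called higher or lower where it differed by at least 1.5-fold and this interval excluded 0. KDM4C itself had 1047 counts in LKO and 242 in shKDM4C, a level of 27.8% of the control. Of 11 squamous epithelial markers all had at least 41 counts in each library, from KRT16 up to DSP, and 3 were called lower, among them CDH1 and TP63, and 1 higher. The 9 markers of blood, vessel, stroma, liver and muscle cells summed to 138 and 209 counts, with CD3E and MYH7 at 0 in both libraries and PECAM1 and COL1A1 called higher. Genes of the mitochondrial genome took 3.83% and 4.29% of the counts. The part of these shifts in the results below was not tested, and in bulk RNA a change in the make-up of the cells and a change in RNA per cell cannot be told apart.

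The hairpins are shown first, since a chance match to a member would bear on its value. The study lists 2 hairpins against KDM4C, both with targets in its coding exons on the plus strand of chromosome 9 of GRCh38. The capitals mark the bases that pair with guide positions 2 to 12.
shKDM4C#1, chr9:6814646-6814666, exon 4: atacttggaTTACGAAGATTt
shKDM4C#2, chr9:6986467-6986487, exon 11: gctatgagaAGCCCGAGAAAt
Each whole target was found in the canonical transcript of 1 gene only. The marked stretch of each holds 5 overlapping words of 7 bases. None of the words of either hairpin occurs in the 3′ UTR of any of the 10 members, against 17.5% of 13216 genes searched for shKDM4C#1 and 10.5% for shKDM4C#2.

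Of the 10 members, 3 were called lower in the shKDM4C library, beside 15.7% of the 18078 tested genes, and 1 was called higher, beside 13.0%. The other 6 were neither. The median log2 ratio of the members was -0.20 and that of all tested genes -0.0094. Summed over the 10 genes, the scaled level was almost the same in both libraries, 565 CPM in LKO and 561 in shKDM4C (log2 ratio -0.010, interval -0.033 to 0.013). Without CPT1A the other 9 summed to 528 and 465 CPM (log2 ratio -0.18, interval -0.21 to -0.16). The near equality of the sum was thus not kept without CPT1A. Sums without each of the other genes were not computed, so this is not shown to be particular to CPT1A. These sums weight each gene by its counts, of which HADHA held the most in both libraries, 30.7% and 28.6%.

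**Figure D1:**
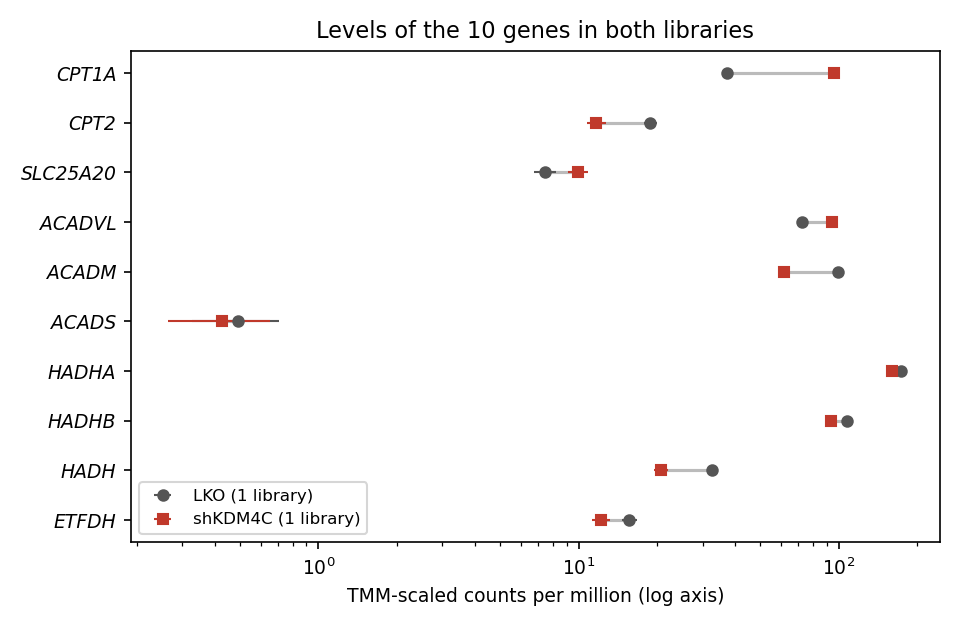
TMM-scaled CPM of the 10 genes on a log axis, with 1 point per library (circles, LKO; squares, shKDM4C) and exact Poisson 95% intervals for counting error. CPT1A moves from 37.3 to 96.2 CPM, and ACADS lies below 1 CPM in both libraries.

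The shuttle genes went in different directions. CPT1A, on the minus strand at chr11:68754620-68844410, had 37.3 CPM in LKO and 96.2 CPM in shKDM4C. It was 2.58-fold higher, with a log2 ratio of 1.37 (interval 1.29 to 1.44). Of all tested genes, 5.06% had a ratio as high. SLC25A20, the carnitine-acylcarnitine carrier at chr3:48856926-48898904, had 440 and 491 counts, or 7.43 and 9.96 CPM. Its log2 ratio of 0.42 (interval 0.23 to 0.61) lay above 0 but under the 1.5-fold limit. CPT2, which re-forms acyl-CoA inside the matrix, lies at chr1:53196792-53214197 and had 1119 counts in LKO and 578 in shKDM4C. Its log2 ratio was -0.69 (interval -0.84 to -0.54), so that the level was 62.0% of the control.

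Ratios between genes of the same library do not depend on the scaling. There were 1.97 CPT1A counts for each CPT2 count in LKO and 8.20 in shKDM4C, a 4.16-fold shift (interval 3.72 to 4.65). The SLC25A20 count per CPT2 count shifted 2.16-fold (interval 1.84 to 2.54). CPT1A moved up against every other member, by between 1.92-fold against SLC25A20 and 4.16-fold against ACADM and CPT2, with no interval that included 1. Its share of the counts of all 10 genes was 6.60% in LKO (Wilson interval 6.34 to 6.87) and 17.1% in shKDM4C (interval 16.7 to 17.6). In LKO it was thus well below ACADVL, HADHB and ACADM in counts, and in shKDM4C it passed ACADM and was near ACADVL and HADHB.

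**Figure D2:**
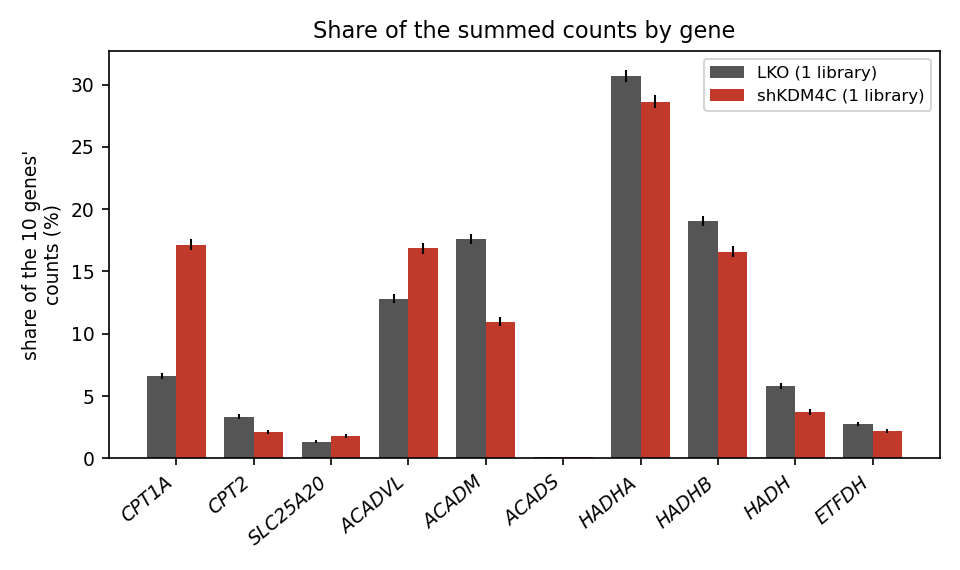
Share of the summed counts of the 10 genes held by each gene (%), in LKO (grey) and shKDM4C (red), 1 library each, with Wilson 95% intervals for counting error. The share of CPT1A goes from 6.60% to 17.1% while that of ACADM goes from 17.6% to 11.0%.

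The isoforms CPT1B, of muscle, and CPT1C, of brain, were close to absent. CPT1B had 10 counts in LKO and 18 in shKDM4C, with an interval of its log2 ratio from -0.080 to 2.39. CPT1C had 9 and 10 counts and did not reach the minimum of 20. CPT1A therefore held nearly all CPT1 counts of both libraries.

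Among the acyl-CoA dehydrogenases, the long-chain and the medium-chain enzyme went opposite ways. ACADVL, the very long-chain enzyme at chr17:7217125-7225266, had 4292 counts in LKO and 4663 in shKDM4C. With 72.5 and 94.6 CPM its log2 ratio was 0.38 (interval 0.32 to 0.44), above 0 and under the 1.5-fold limit. ACADM, the medium-chain enzyme at chr1:75724431-75787575, had 5886 counts against 3040. Its level was 99.4 CPM in LKO and 61.7 in shKDM4C, 62.0% of the control, with a log2 ratio of -0.69 (interval -0.75 to -0.63). Per ACADM count there were 0.729 ACADVL counts in LKO and 1.53 in shKDM4C, a shift of 2.10-fold (interval 1.98 to 2.23), so that the order of the pair turned. ACADS, the short-chain enzyme at chr12:120725774-120740008, had only 29 and 21 counts. At this depth its interval from -1.09 to 0.66 does not exclude a difference in either direction.

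The genes of the trifunctional protein changed least among the abundant members. This protein hydrates the long-chain product of the first dehydrogenation, oxidizes it again and splits off acetyl-CoA. HADHA, the alpha subunit at chr2:26190635-26244672, had 10260 and 7923 counts, or 173 and 161 CPM, and a log2 ratio of -0.11 (interval -0.15 to -0.067). HADHB, the beta subunit with the thiolase, at chr2:26243170-26290465, had 6368 and 4588 counts, or 108 and 93.1 CPM, and a log2 ratio of -0.21 (interval -0.26 to -0.15). Both were below the control by less than 1.5-fold. The canonical transcripts of these 2 genes start head to head, 307 bases apart on opposite strands, while the gene spans given here cover all annotated transcripts and overlap. Their count ratio, HADHA over HADHB, was 1.61 in LKO and 1.73 in shKDM4C, a shift of 1.07-fold (interval 1.02 to 1.12).

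HADH, the dehydrogenase of medium- and short-chain hydroxyacyl-CoA at chr4:107989714-108035241, was lower. It had 1934 counts in LKO and 1027 in shKDM4C, or 32.7 and 20.8 CPM, which is 63.8% of the control (log2 ratio -0.65, interval -0.76 to -0.54). Against ACADM its count ratio shifted 1.03-fold (interval 0.942 to 1.12), and ACADM against CPT2 shifted 1.00-fold (interval 0.896 to 1.12). ACADM was thus not told apart in size of change from HADH or from CPT2 at this depth, and both intervals leave room for a difference.

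ETFDH, which hands the electrons of the acyl-CoA dehydrogenases to ubiquinone, lies at chr4:158671968-158710742 and had 929 and 604 counts. At 15.7 and 12.3 CPM its log2 ratio was -0.36 (interval -0.51 to -0.21), below the control but under the 1.5-fold limit. ETFA, the larger ETF subunit that feeds it, had 6193 and 5180 counts and a log2 ratio of 0.0063 (interval -0.047 to 0.060). ETFB, the smaller subunit, had 402 and 252 counts, a log2 ratio of -0.41 and an interval of -0.64 to -0.18. The electron transfer steps thus showed a spread, with no call among these 3 genes.

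**Figure D3:**
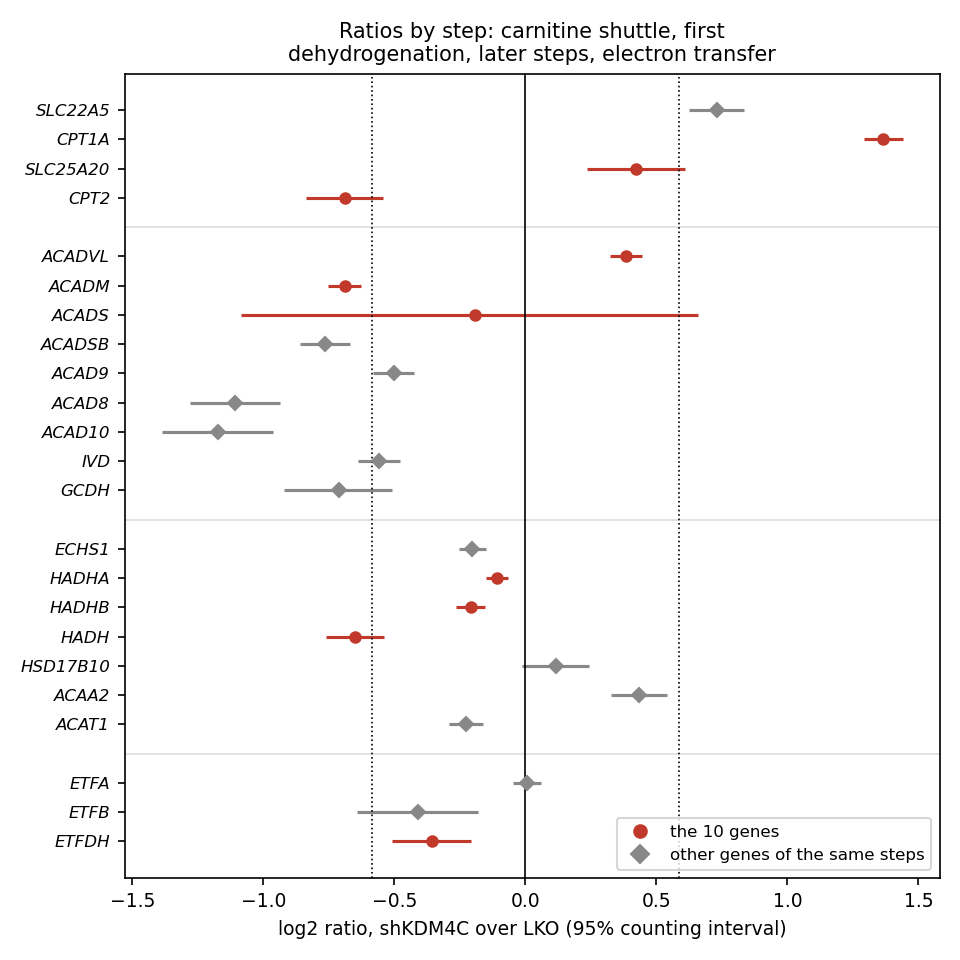
Log2 ratio of shKDM4C over LKO with 95% counting intervals, grouped by step of the pathway. Red circles mark the 10 genes, and grey diamonds mark other genes of the same or related reactions. Among the latter is ACAD8, which acts on a valine product. Dotted lines mark 1.5-fold. CPT1A at 1.37 is the highest of the genes shown, and ACAD10 at -1.17 the lowest.

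Read per length of the canonical transcript, in TPM, a unit relative to transcript length and library, HADHA was first in both libraries, with 157 in LKO and 135 in shKDM4C, followed by HADHB with 143 and 115. Next came ACADM in LKO at 117 TPM and then ACADVL at 88.4. In shKDM4C these places were swapped, with ACADVL at 107 and ACADM at 67.4 TPM. CPT1A at 19.0 TPM (Poisson interval 18.2 to 19.8) and CPT2 at 18.7 (interval 17.6 to 19.8) overlapped in LKO, and in shKDM4C they were far apart at 45.4 and 10.7. HADH had 48.3 and 28.6 TPM, SLC25A20 11.1 and 13.8, ETFDH 13.4 and 9.73, and ACADS 0.702 and 0.566. In shKDM4C CPT2 and ETFDH overlapped within counting error. In order of level CPT1A went from place 6 to place 5. With all annotated exons merged as the length, a choice made after seeing the data, CPT1A went from place 5 to place 4. ACADVL was then above ACADM in both libraries, with 67.2 against 32.2 TPM in LKO, and CPT1A was above CPT2 in LKO, with 25.3 against 8.37 TPM, so the order of these pairs in LKO rests on the length used.

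**Figure D4:**
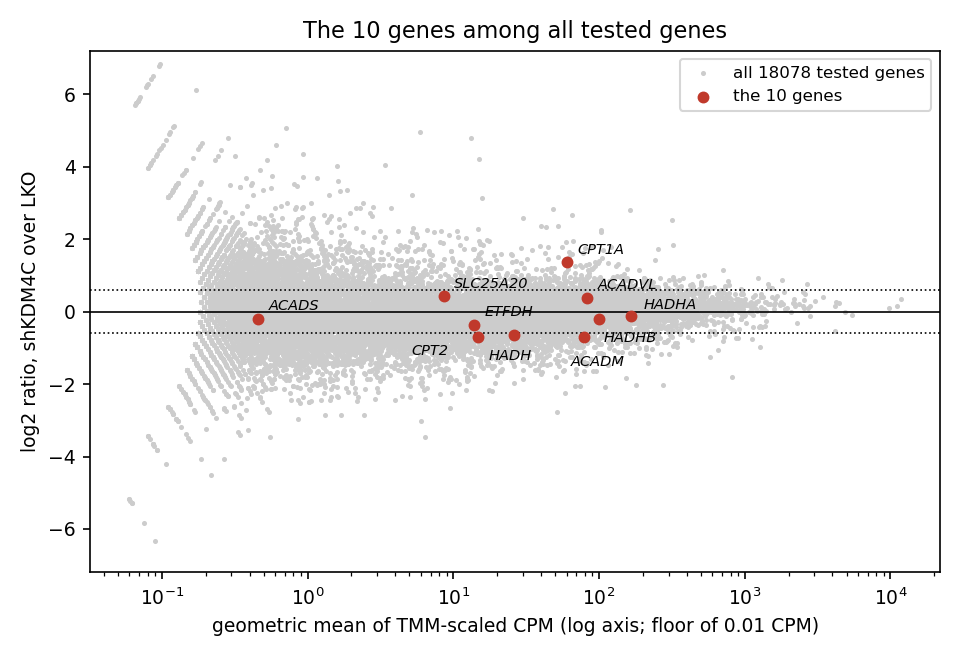
Log2 ratio of shKDM4C over LKO against the geometric mean of the TMM-scaled CPM (log axis) for all 18078 tested genes (grey) and the 10 genes (red); dotted lines mark 1.5-fold. CPT1A lies above the upper line, and ACADM, CPT2 and HADH lie just below the lower one.

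The GC content of the transcript moved with the ratio across all genes, so it is set beside the members. In 5 bins of equal size by GC content of the canonical transcript, the median log2 ratio of the tested genes went from 0.087 in the bin with the least GC to -0.19 in the bin with the most. ACADM, with 35.9% GC, is in the bin with the least GC and was called lower. ACADVL, with 57.8% GC, is in the bin with the most and had a ratio above 0. ACADS, with 63.7% GC, is in the same bin as ACADVL and had -0.19, on 29 and 21 counts. The part of GC content in these values was not tested. CPT1A (50.8% GC) and CPT2 (51.5% GC) share a bin, with a median of -0.063, and were called in opposite directions. By length CPT1A is in the bin with the longest transcripts, with a median of -0.035.

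Some members share exonic bases with other genes, and the strand setting of the counting is not given in the sources used here. ACADVL shares 49 bases with DLG4 on the opposite strand, which had 186 counts in LKO and 518 in shKDM4C and a log2 ratio of 1.74. ETFDH shares 1427 bases with PPID, which had 4663 and 5158 counts, and CPT2 shares 99 with CZIB, which had 1343 and 1225. ACADM shares 157 bases with RABGGTB on its own strand (8641 and 10191 counts). The log2 ratios of PPID, CZIB and RABGGTB were 0.41, 0.13 and 0.50. C4orf46, which shares 259 bases with ETFDH, had 1823 and 1436 counts (log2 ratio -0.080). DLSTP1, a pseudogene that shares 1354 bases with ACADM, had 16 and 9 counts. CYP2U1-AS1, a lncRNA gene that shares 11 bases with HADH on the opposite strand, had 2 and 19 counts and was called higher. A U3 snoRNA gene that shares 219 bases with ETFDH on its own strand had 7 and 10 counts. A lncRNA gene without a symbol that shares 1151 bases with CPT2 had 16 and 11 counts. The processed pseudogenes of SLC25A20, HADHA and HADHB had at most 3 counts in either library. CPT1A, SLC25A20, ACADS, HADHA and HADHB shared no exonic bases with another gene.

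The microRNAs miR-33a and miR-33b, known in human cells to repress CPT1A, HADHB and CROT, lie inside the sterol regulator genes SREBF2 and SREBF1. They were looked up after the values were seen. Their mature sequences from RefSeq (GRCh38.p14) share 1 seed, bases 2 to 8, shown in capitals.
hsa-miR-33a-5p, chr22:41900949-41900969: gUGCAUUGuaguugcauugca
hsa-miR-33b-5p, chr17:17813897-17813916: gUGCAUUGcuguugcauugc
The complement of this seed, in capitals below, was found in the 3′ UTR of 2 of the 10 members, CPT1A and HADHB, and at 2 places in that of CROT, the peroxisomal carnitine octanoyltransferase. Of 13216 genes searched, 9.03% hold it.
CPT1A, chr11:68755116-68755140, minus strand: tgcagttatCAATGCAattttatat
HADHB, chr2:26290005-26290029, plus strand: atgccatttCAATGCAttactaaat
CROT, chr7:87398851-87398875, plus strand: atgcagcagCAATGCAaattatgac
CROT, chr7:87398927-87398951, plus strand: aaactttaaCAATGCAagtcttact
Both host genes were lower in shKDM4C. SREBF1 had 2220 counts against 411 and SREBF2 had 6707 against 2429, with log2 ratios of -2.17 (interval -2.32 to -2.02) and -1.20 (interval -1.27 to -1.13). The genes with a match were not alike: CPT1A was higher, HADHB had -0.21, and CROT was lower at -1.11 (interval -1.26 to -0.96). Over all genes the median was 0.014 with a match and -0.035 without. The microRNAs themselves were not measured, and their part in these values was not tested.

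Promoters were searched for 9 members in RefSeq windows from 250 bases before to 50 after the start (GRCh38.p14). The window of ETFDH was not used here. Neither the nuclear receptor core motif, AGGTCA, nor the ERR element, TCAAGGTCA, which contains it, occurs in any of the 9 on either strand, against 13.9% and 0.359% of 27305 promoters. The letters AGATAA, which GATA factors can bind, occur in 1 of the 9 and in 10.5% of all promoters. That window is shown because the study concerns GATA1, with the match in capitals, 80 bases before the start of ACADVL.
ACADVL, chr17:7217033-7217062, plus strand: ggcgccagtcccAGATAAggcctactaacc
A match is a string of letters and not a measured site. Variant spellings and sequence outside these windows were not searched, so the lack of a match does not show the lack of a site.

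Other genes of the pathway and of related reactions were listed by role, 136 in all. Of these, 114 had at least 20 counts, and 37 of the 114 were called lower and 7 higher. Their median log2 ratio was -0.23. The counts of this list and of the role lists stand beside 15.7% lower and 13.0% higher over all tested genes, and no list was tested against these shares. The other acyl-CoA dehydrogenase genes had the lowest median of the role lists. Of 7 tested, 4 were called lower and 0 higher, at a median of -0.71. ACAD10 had 688 and 254 counts (log2 ratio -1.17, interval -1.39 to -0.96) and ACAD8, which acts on a valine product, had 996 and 385 (log2 ratio -1.11, interval -1.28 to -0.94). ACADSB, the short/branched-chain enzyme, was at 58.9% of the control. The 4 remaining enzymes of the spiral were all within 1.5-fold, with ACAA2, the matrix thiolase, at 0.43 (interval 0.33 to 0.54) and ECHS1, the short-chain hydratase, at -0.20 (interval -0.25 to -0.15).

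Of 7 tested genes of carnitine supply and acylcarnitine transfer, 2 were called lower and 1 higher, at a median of -0.25. The higher one was SLC22A5, the plasma membrane carnitine transporter, with 1256 and 1735 counts (log2 ratio 0.73, interval 0.62 to 0.84). TMLHE, the first enzyme of carnitine synthesis, was lower with 444 and 193 counts, as was CROT. Lowering the count minimum to 1 turned this median to 0.22. Of 14 tested genes of fatty acid uptake and activation, 4 were called lower and 2 higher. The binding protein gene FABP3 was 2.64-fold higher and the acyl-CoA synthetase gene ACSL5 2.41-fold higher, while the synthetase gene ACSF2 was at 48.5% of the control. Of 14 tested auxiliary and thioesterase genes, 5 were lower and 0 higher. DECR1, which is needed for unsaturated chains, was at 47.3% of the control, and MMUT, the mutase of odd-chain products, at 49.4%. Among the electron transfer partners 1 of 7 was called, RFK, the riboflavin kinase of flavin supply, which was 1.91-fold higher.

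CPT1 is controlled by malonyl-CoA, and the genes that make and remove it were lower. ACACA, the main acetyl-CoA carboxylase, had 17019 counts in LKO and 8250 in shKDM4C (log2 ratio -0.78, interval -0.82 to -0.74). ACACB, the isoform at the mitochondrial surface, had 256 and 112 counts (-0.93, interval -1.26 to -0.60). MLYCD, which breaks malonyl-CoA down, had 182 and 55 counts (-1.45, interval -1.92 to -1.02). Synthesis and removal genes thus had the same direction. Of the 13 genes of malonyl-CoA and AMPK control, 5 were lower and 0 higher. The AMPK catalytic gene PRKAA1 had 0.31 (interval 0.29 to 0.34), PRKAA2, of lower level, -0.71 (interval -1.07 to -0.37), and the upstream kinase gene STK11 -0.38 (interval -0.48 to -0.28). Above 0 and under the 1.5-fold limit were CAB39, a partner of STK11, at 0.55, and the AMPK subunit genes PRKAB2 at 0.54, PRKAB1 at 0.41 and PRKAG1 at 0.22. The AMPK genes thus lay on both sides of 0.

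Of 16 tested PPAR and PGC-1 regulators, 6 were called lower and 0 higher, at a median of -0.44. PPARA, the PPAR most tied to fatty acid oxidation in liver, had 712 and 335 counts (log2 ratio -0.82, interval -1.02 to -0.63). RXRA, the shared partner of the PPARs, was at 36.0% of the control. PPARD had -0.42 (interval -0.55 to -0.30) and PPARG 0.32 (interval 0.26 to 0.39). LPIN1, a lipin that also acts as a coactivator, was lower at 45.2% of the control. PPARGC1A, the PGC-1alpha gene, RXRG and ESRRG had 0 counts in both libraries, which allows a level of up to 0.0507 CPM in LKO and 0.0609 in shKDM4C at a floor of 3 counts.

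Of 10 tested PPAR target genes, 4 of them members, 0 were called lower and 3 higher, beside 15.7% and 13.0% of all tested genes. The median was 0.43. ANGPTL4, a lipase inhibitor gene, had 15 counts in LKO and 168 in shKDM4C (log2 ratio 3.71, interval 2.99 to 4.62). CPT1A was the next highest, and TXNIP had 0.65 (interval 0.54 to 0.76). With total counts in place of TMM, TXNIP was at 0.57 and no longer called, which left 2 higher calls. The other members on the list, SLC25A20, ACADVL and HADHA, were neither.

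**Figure D5:**
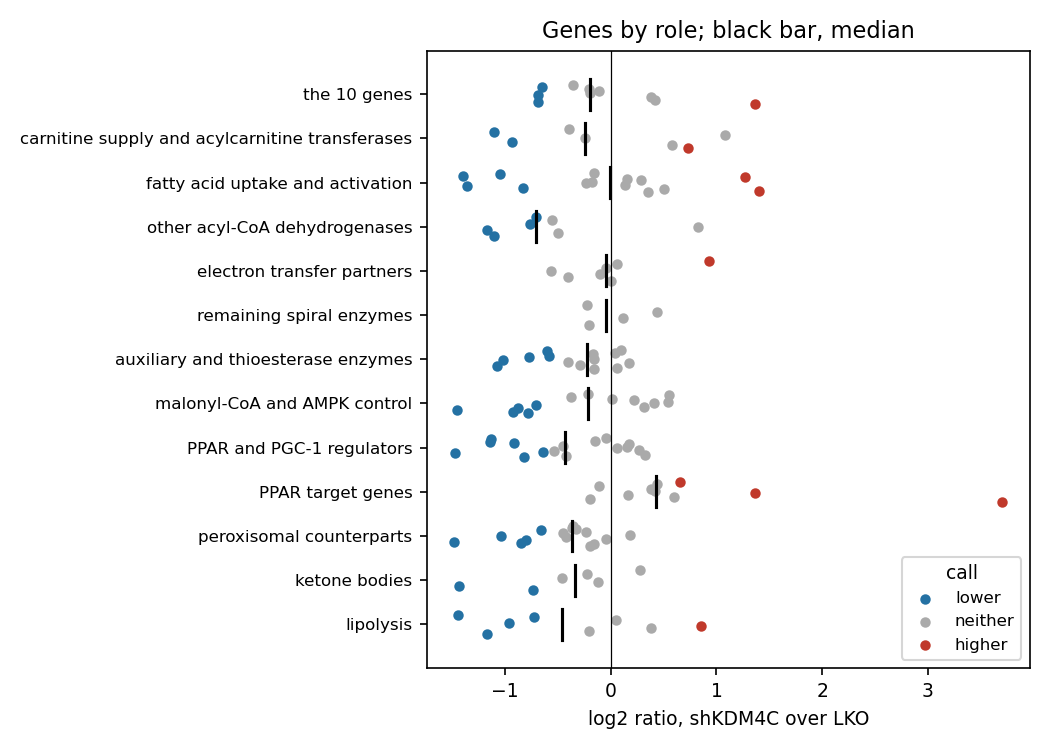
Log2 ratio of shKDM4C over LKO of the tested genes of each role list, 1 point per gene coloured by call, with the median as a black bar. The median of the other acyl-CoA dehydrogenases is -0.71 and that of the PPAR target genes 0.43. Of the 10 tested PPAR target genes, 4 are members, CPT1A among them, and are drawn in both rows.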

How the data were processed

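The authors aligned trimmed paired-end reads to GRCh38 with HISAT2, and the deposited table holds whole-number counts per Ensembl gene from featureCounts. Their notes name CASAVA, FastQC, MultiQC, Trimmomatic and DESeq2. Versions, annotation and strand setting: not given in the sources used here. Their own comparison of both libraries (CPM, fold changes, p-values) was not used. Symbols, positions and transcripts came from GENCODE v44, which holds 58472 of the 58884 gene IDs. The 412 others held at most 0.0508% of the counts of a library. The 18078 genes whose summed count reached 20 were compared. Scaling used TMM (edgeR 4.0.16, R 4.3.3), with totals and DESeq2 1.42.0 size factors as alternatives. Log2 ratios used a prior count of 0.5. Intervals are exact conditional binomial (Clopper-Pearson) at 95%, exact Poisson for levels, Wilson for shares and, for ratios between genes, a normal approximation on the log odds ratio. None covers more than counting error, and PCR duplicates can make them too narrow. No p-value was computed. The code was checked on simulated counts.

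Named genes were all members, the CPT1, ETF and thiolase partners, regulators past the filter, and up to 3 called genes per direction of each other list. SREBF1, SREBF2, the microRNAs, the genes that overlap members and the regulators at 0 were added after values were seen. The members and lists were chosen with earlier results of these data known. Calculations used Python 3.11.15, numpy 2.4.6, pandas 2.3.3 and scipy 1.17.1. Some listed genes are not reported here.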

Additional observations from a re-analysis of the deposited data

How the results depend on the processing

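The 3 lower calls (CPT2, ACADM, HADH) and the higher call (CPT1A) were kept with total counts or RLE size factors in place of TMM, with count filters of at least 1 or at least 200, with a prior count of 5 and with a 99% interval. With at least 2-fold as the limit, 0 members were called lower and CPT1A alone was higher. With at least 1.2-fold, 4 were lower, ETFDH being added, and 3 higher, with SLC25A20 and ACADVL. Over all genes, a limit of 1.2-fold gave 4777 lower and 4159 higher, a limit of 2-fold 1348 and 1404, and a filter of at least 200 counts 1664 and 1053. Total counts moved every ratio by -0.077 and RLE by 0.011. The members' median ranged from -0.28 to -0.17 over the scalings, filters and prior counts tried. Of 219 values for 73 named genes under other scalings or the prior count of 5, 0 called values changed sign. With total counts TXNIP lost its call and PPARGC1B gained one, as lower. No spread between cultures can be had from 1 library per condition, and ACADS is limited by its depth.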

Other observations

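Of 15 tested peroxisomal counterparts, 5 were called lower and 0 higher, beside 15.7% and 13.0% of all tested genes, and 10 were neither. Their median log2 ratio was -0.37. EHHADH, the peroxisomal bifunctional enzyme, had 427 counts in LKO and 127 in shKDM4C (log2 ratio -1.48, interval -1.78 to -1.20), and HSD17B4, which acts at the same steps, was at 57.2% of the control.

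Of 6 tested genes of ketone bodies, 2 were called lower and 0 higher. BDH1, the hydroxybutyrate dehydrogenase, had 397 and 122 counts (log2 ratio -1.43, interval -1.74 to -1.14). Of 8 tested lipolysis genes, 4 were lower and 1 higher. PNPLA2, the triglyceride lipase gene, had 813 and 300 counts (log2 ratio -1.17, interval -1.37 to -0.98), whereas ABHD5, its coactivator, was 1.80-fold higher with 3467 and 5208 counts. The lipase and its coactivator therefore had opposite calls.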
